A study of Homo sapiens with 4 samples.

Results

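The Normal hairpin is the lesion-free member of a set of 9 synthetic DNA hairpins used to read DNA repair in single cells. Its members here are the 61 rows of the deposited matrix that carry the repair prefix and the substrate name Normal, positions 1 to 61. Each of the other 8 hairpins has 61 rows of its own. The rows were chosen by name and not by any measured value. The cells were MDA MB 134VI (MM134), an established wild-type line of lobular breast carcinoma. Estradiol cells received 100 nM estradiol for 24 h, and vehicle cells received 0.01% ethanol for 24 h. Both groups had been hormone-deprived beforehand in medium with charcoal-stripped serum. Each treatment gave 1 repair library, so no difference between treatments can be set against replicate error and no p-value is given.

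In the assay, called Haircut, DNA hairpins meet the repair enzymes of single cells. Glycosylases, AP endonucleases and ribonuclease H2 act at a uracil, an abasic site or a ribonucleotide, and the incision is read as an excess of molecules that end there. A hairpin without a lesion has no such site. Its end profile is the base against which the lesion hairpins are read. Position numbers are those of the row names, and the sources used here give neither the end from which they count nor the hairpin's sequence.

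The estradiol library held 3367 cells and 4479977 repair UMIs (unique molecular identifiers, each standing for 1 captured molecule), and the vehicle library 4940 cells and 4738500 repair UMIs. Repair UMIs per cell had a median of 1311 with estradiol (13 to 4164) and 930 with vehicle (10 to 3235). Only 4 cell barcodes occurred in both libraries. All 6 luminal-line genes checked were present in the all-gene rows of both libraries. They include CDH1, listed as a gene often lost, at 10.3 CPM with estradiol and 10.1 CPM with vehicle. Of 9 genes that mark other cell types, 7 had no UMI in the all-gene rows with estradiol and 8 none with vehicle. In the panel rows PTPRC had 3 UMIs with vehicle. The collagen gene COL1A1 was present in both libraries, at 21.1 CPM with estradiol and 26.02 CPM with vehicle in the all-gene rows. In the panel rows COL1A1 had 2902 UMIs (280 CPM) with estradiol and 5527 UMIs (393 CPM) with vehicle. By the deposited phase calls, all 6 S-phase genes checked were highest in S cells and all 6 G2M genes in G2M cells, in either library. These genes may have entered the phase calls themselves, so this is not an independent check of them.

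The Normal hairpin took nearly the same part of the repair signal in both libraries. It gave 621455 UMIs with estradiol, 13.87% of the repair UMIs (exact 95% interval 13.84 to 13.90), and 661513 UMIs with vehicle, 13.96% (13.93 to 13.99). The ratio of these shares was 0.994 (0.990 to 0.997). All intervals cover counting error only and treat UMIs as independent, so they leave out the spread between cells and between cultures. Every cell had at least 1 Normal UMI. The median cell held 180 with estradiol (5th to 95th percentile 77 to 305) and 128 with vehicle (53 to 229).

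The lesion-free profile was uneven and lay almost wholly in positions 1 to 36, which held 99.61% of Normal UMIs with estradiol and 99.58% with vehicle. Position 20 alone held 25.8% with estradiol (25.7 to 25.9) and 23.1% with vehicle (23.03 to 23.2). Position 9 came next at 14.3% with estradiol (14.2 to 14.4) and 15.7% with vehicle (15.6 to 15.8). Position 11 held 7.36% with estradiol and 7.93% with vehicle, and position 16 held 6.94% with estradiol and 6.54% with vehicle. These 4 positions were peaks above both neighbours in either library, and their order was the same in both.

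Lower peaks stood on either side of them. Position 24 held 4.25% with estradiol and 4.21% with vehicle. Position 7 held 1.63% with estradiol and 1.88% with vehicle, and position 33 held 1.46% with estradiol and 1.64% with vehicle. Position 31 was a small peak, at 0.993% with estradiol and 1.05% with vehicle. Position 14 was a peak with estradiol alone, at 2.72% (2.679 to 2.760) beside 2.64% (2.603 to 2.683) for position 15. With vehicle, position 14 at 2.53% (2.496 to 2.572) lay below position 15 at 2.60% (2.561 to 2.638). The intervals of these positions overlap in each library, so their order is near counting error.

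In all, 13 positions reached 2% in at least 1 library. Besides those above they were position 1 at the end of the numbering, with 2.73% with estradiol and 3.33% with vehicle, and position 21 beside the main peak, with 3.40% with estradiol and 3.04% with vehicle. Position 25 held 2.29% with estradiol and 2.42% with vehicle. Positions 10, 17 and 23 lay between 2.06% and 2.34% with estradiol and between 2.09% and 2.32% with vehicle. Positions 3 to 6 formed a trough, from 0.156% to 0.345% with estradiol and from 0.173% to 0.397% with vehicle.

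After position 36 the Normal signal dropped steeply. Position 36 held 0.555% with estradiol and 0.606% with vehicle, and position 37 held 0.0755% with estradiol and 0.0819% with vehicle. Position 61 had 0 UMIs in either library, which allows a share of up to 0.000483% with estradiol and 0.000454% with vehicle, taking 3 counts as the limit. The evenness of the whole profile equalled that of 17.2 equally used positions with estradiol and 18.0 with vehicle (the exponential of the entropy). The CI hairpin was more concentrated, at 8.68 positions with estradiol and 8.74 with vehicle. RiboG was less so, at 26.97 with estradiol and 27.3 with vehicle.

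Position 20 was higher on Normal than on any other hairpin. Its 25.8% with estradiol stood against a median of 1.23% over the other 8 hairpins, and its 23.1% with vehicle against 1.17%. Normal also had the highest share at positions 11, 22, 23 and 24 in both libraries. Position 20 was the main position of Uracil2 as well, with 20.7% of its UMIs with estradiol and 19.7% with vehicle, and of Uracil3, with 14.004% with estradiol and 13.5% with vehicle. Position 9 was the main position of CI, far above Normal, with 56.0% of CI UMIs with estradiol and 55.8% with vehicle. The main position of TI was 6, in the trough of the Normal profile, with 20.9% of TI UMIs with estradiol and 21.05% with vehicle.

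Profiles of hairpins were compared by the share of UMIs that would have to change position to turn one into the other. The share was lowest between Normal and riboG, at 48.3% with estradiol and 47.8% with vehicle. Uracil2 stood close behind, at 48.5% with estradiol and 49.9% with vehicle, and Abasic was farthest, at 84.7% with estradiol and 85.2% with vehicle. Across the 61 positions, the Pearson correlation with Normal was highest for Uracil2, 0.68 with estradiol and 0.64 with vehicle. The rank correlation over all 61 positions was highest for CI, 0.82 with estradiol and 0.81 with vehicle. Over positions 1 to 36 alone it was 0.28 for CI with estradiol and 0.24 with vehicle, and it was highest for Uracil2, at 0.54 with estradiol and 0.52 with vehicle. CI has little signal after position 36, as Normal has, whereas Uracil2 had 17.2% of its UMIs there with estradiol and 17.03% with vehicle. These correlations describe positions of the same libraries, and no test was made.

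In the window of positions 44 to 50, where lesion hairpins had many ends, the Normal hairpin was nearly empty. The window held 635 Normal UMIs with estradiol, 0.102% of Normal UMIs (0.0944 to 0.110), and 748 with vehicle, 0.113% (0.105 to 0.121). The ratio was 0.904 (0.812 to 1.01), an interval that includes 1. With equal weight to each phase or to each depth bin it was lower, and the computed interval then lay below 1. That interval treats reweighted shares as plain counts, so it is too narrow and does not settle the side of 1. Position 44 was the highest of the window on Normal, with 197 UMIs with estradiol and 236 with vehicle. Position 45 had 46 with estradiol and 56 with vehicle, and position 46 had 73 with estradiol and 64 with vehicle. On the lesion hairpins these were the high positions instead, 46 on Abasic and 45 on GU, riboG and the 3 uracil hairpins.

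The rest of the window was as sparse on Normal. Position 47 had 136 UMIs with estradiol and 124 with vehicle, and position 48 had 61 with estradiol and 98 with vehicle. Position 49 had 80 with estradiol and 112 with vehicle, and position 50 had 42 with estradiol and 58 with vehicle. With so few UMIs a single position carries a wide interval, as at position 48, where the ratio was 0.663 (0.473 to 0.921).

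Normal was not alone in this. It held 0.102% in the window with estradiol where CI held 0.117%, and 0.113% with vehicle where CI held 0.134%. TI held 0.212% with estradiol and 0.253% with vehicle. The remaining hairpins were far above. RiboG stood 58.7 times above Normal with estradiol and 54.2 times with vehicle, and Abasic 566 times with estradiol and 564 times with vehicle. At position 45 alone, Uracil1 was 2425 times above Normal with estradiol and 2161 times with vehicle. At position 44 the distance shrank, to 2.83 times for Uracil1 with estradiol and 2.84 times with vehicle. CI and TI were below Normal at position 44, CI at 0.428 times its share with estradiol and 0.336 times with vehicle, and TI at 0.618 times with estradiol and 0.661 times with vehicle.

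Between treatments the Normal profile differed little at any position. Of the 61 positions, 39 had at least 500 UMIs over both libraries. The fold limit was a ratio of estradiol to vehicle of at least 0.32 on the log2 scale, or of at most 0.8 on the linear scale. Above it were 0 of the 39 positions, against 2.82% of all 390 repair rows with that many UMIs, each taken as a share of its own hairpin. Below it were 0 of the 39, against 4.36% of all repair rows. At 1.1-fold, a limit chosen after the values were seen, 2 positions were higher (20 and 21), 5.13% of the 39 against 20% of all repair rows. At that limit 10 were lower, 25.6% of the 39 against 21.8%.

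The highest ratios were at position 21 (1.12, 1.097 to 1.14), position 20 (1.12, 1.11 to 1.12) and position 13 (1.08, 1.02 to 1.15). The lowest were at position 1 (0.820, 0.804 to 0.837), position 40 (0.829, 0.712 to 0.964) and position 5 (0.857, 0.798 to 0.920). In all, 4.05% of Normal UMIs would have to change position between the libraries. The same measure ranged from 1.66% for CI to 6.05% for Abasic over the 9 hairpins, and Normal came after Abasic and GU.

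The small ratios were ordered along the hairpin. All 11 positions from 1 to 11 had a ratio below 1, and 12 of the 13 positions from 12 to 24 had one above 1. From 25 to 37, 11 of 13 were below 1. Over all 390 repair rows the sides were near even, 188 above 1 and 202 below. Positions 1 to 11 together held 31.6% of Normal UMIs with estradiol and 34.9% with vehicle. Positions 12 to 24 held 57.3% with estradiol and 53.3% with vehicle, and positions 25 to 36 held 10.7% with estradiol and 11.4% with vehicle. These bands were drawn after the values were seen.

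Depth moved with the same positions, and by more. The cells of each library were ranked by repair UMIs and divided into a shallow, a middle and a deep group of equal size. In that order position 20 held 22.03%, 25.01% and 28.0% of Normal UMIs with estradiol, and 18.8%, 21.8% and 25.8% with vehicle. Position 9 ran the other way, at 18.3%, 15.9% and 11.5% with estradiol and 20.4%, 17.7% and 12.4% with vehicle. The main position was 20 except in the shallow vehicle group, where it was 9. Position 1 fell like position 9, with 3.82%, 2.92% and 2.12% with estradiol and 4.86%, 3.67% and 2.47% with vehicle. The Normal share of repair UMIs was 13.0%, 13.8% and 14.3% with estradiol and 13.1%, 13.8% and 14.5% with vehicle.

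Other positions followed one of these courses. Position 21 had the steepest increase of the hairpin with depth, at 2.40%, 2.90% and 4.18% from shallow to deep with estradiol and 2.09%, 2.56% and 3.75% with vehicle. Position 11 was higher in deep cells although position 9 was lower. It held 6.45%, 7.08% and 7.96% with estradiol and 6.23%, 7.35% and 9.03% with vehicle. Position 11 thus went with depth on the opposite side from treatment, since over all cells its ratio of estradiol to vehicle was 0.928. Of 36 positions with at least 500 UMIs in the shallow and deep groups together, 11 were higher in the deep group in both libraries, 24 were lower in both, and 1 differed. These sides were not counted over all repair rows. The fold limit was passed upwards by 3 positions with estradiol, 8.33% of the 36 against 20.9% of all repair rows, and by 5 with vehicle, 13.9% against 27.5%. It was passed downwards by 9 with estradiol, 25% against 22.7%, and by 12 with vehicle, 33.3% against 21.6%.

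Every hairpin differed between deep and shallow cells. For Normal, 12.6% of UMIs would have to change position with estradiol and 15.1% with vehicle. For the other 8 hairpins the measure lay between 5.26% (CI) and 14.9% (TI) with estradiol, and between 5.61% (CI) and 14.8% (TI) with vehicle.

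In cells of like depth the treatment difference was smaller at position 20 and turned at position 9. Among cells with 800 to 1400 repair UMIs (1624 with estradiol, median 1148, and 2744 with vehicle, median 1046.5), position 20 held 23.6% with estradiol and 23.5% with vehicle. Position 9 held 17.2% with estradiol and 15.6% with vehicle, the reverse of the order over all cells. In 7 bins of 200 repair UMIs from 600 to 2000, the ratio of estradiol to vehicle at position 20 was above 1 in 4 bins and below 1 in 3, between 0.949 and 1.14. At position 9 it was above 1 in 5 bins and below 1 in 2, between 0.881 and 1.29.

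Other shares lay mostly on 1 side in these bins. Position 21, higher with estradiol over all cells, was lower with estradiol in 5 of 7 bins, with a median ratio of 0.848 and a range of 0.783 to 1.18. Position 12, also higher over all cells, was lower with estradiol in 6 of 7, with a median ratio of 0.914. Position 11 was lower with estradiol in 6 of 7 bins, with a median ratio of 0.810 and a range of 0.774 to 1.00. The Normal share of repair UMIs was lower with estradiol in 7 of 7 bins, with a median ratio of 0.955 and a range of 0.949 to 0.997. The depth range and the bins were chosen after the values were seen, and beyond these values the part of depth in the treatment difference was not tested.

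Cell cycle phase went with the profile in a similar way in both libraries. In G1, S and G2M cells, position 20 held 23.96%, 25.3% and 27.5% with estradiol and 20.9%, 22.9% and 25.8% with vehicle. Position 9 held 16.05%, 15.1% and 12.5% with estradiol and 17.98%, 16.7% and 12.7% with vehicle. Position 21 held 2.69%, 3.29% and 4.01% with estradiol and 2.39%, 2.95% and 3.80% with vehicle. Thus position 20 was highest and position 9 lowest in G2M cells of either library. Depth increased in the same order, with a median of 1179, 1286 and 1465 repair UMIs per cell with estradiol and 830, 962 and 1107 with vehicle. The Normal share of repair UMIs was 13.6%, 13.7% and 14.2% with estradiol and 13.7%, 13.8% and 14.3% with vehicle.

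The distance from G1 was larger for G2M than for S cells. Between G2M and G1 cells 7.19% of Normal UMIs would have to change position with estradiol and 10.2% with vehicle. Between S and G1 cells it was 2.99% with estradiol and 3.49% with vehicle.

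Between phases, Normal positions passed the fold limit upwards less often than all repair rows did. Downwards, the share for G2M against G1 cells was near that of all repair rows. In G2M against G1 cells, positions 12 and 21 passed it upwards in both libraries, 5.56% of 36 positions, against 16.4% of all repair rows with estradiol and 27% with vehicle. Positions 1, 2, 5 and 9 passed it downwards in both, with position 29 in addition with estradiol and position 33 with vehicle. These 5 positions in each library are 13.9% of 36, against 10.5% of all repair rows with estradiol and 15.3% with vehicle. In S against G1 cells, position 12 passed it upwards in both libraries, 2.78% of 36 positions, against 13.7% of all repair rows with estradiol and 16.3% with vehicle. Downwards there were 0 positions with estradiol, against 4.23% of all repair rows, and position 5 with vehicle, 2.78% against 5.88%.

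Position 12, a minor end site, had the highest S to G1 and G2M to G1 ratios of the hairpin and was singled out after its values were seen. With estradiol it held 0.667% of Normal UMIs in G1 cells (0.631 to 0.704), 0.935% in S cells (0.890 to 0.981) and 1.06% in G2M cells (1.02 to 1.105). With vehicle it held 0.645% in G1 cells (0.616 to 0.674), 0.935% in S cells (0.877 to 0.995) and 1.05% in G2M cells (1.02 to 1.09). S cells were thus 1.40-fold above G1 cells with estradiol (1.30 to 1.51) and 1.45-fold with vehicle (1.34 to 1.57). For its neighbour 11 the same ratio was 0.976 with estradiol and 0.993 with vehicle, and for its neighbour 13 it was 0.908 with estradiol and 1.01 with vehicle. Other hairpins had rows with larger phase ratios, since position 12 ranked 24 of 307 repair rows with estradiol and 25 of 306 with vehicle for S against G1.

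The phase order at position 12 was the same within a common range of depth. In cells of 1000 to 1400 repair UMIs it held 0.575%, 0.860% and 0.962% in G1, S and G2M cells with estradiol and 0.607%, 0.976% and 1.02% with vehicle. The S interval began at 0.790 with estradiol, above the G1 interval, which ended at 0.632, and at 0.889 with vehicle, above the G1 interval, which ended at 0.658. Median repair UMIs in this range were 1184, 1202 and 1235 with estradiol and 1146, 1137 and 1178 with vehicle. All-gene UMIs had medians of 1239, 1396 and 1652 with estradiol and 1432, 1413 and 1547 with vehicle, and their part in the result was not tested. Over all cells position 12 also went with depth, at 1.04% in deep and 0.738% in shallow cells with estradiol, and 0.974% in deep and 0.712% in shallow cells with vehicle.

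The phase order of the main positions also remained in that range for G2M cells. Position 9 held 18.2%, 17.2% and 14.9% in G1, S and G2M cells with estradiol and 15.3%, 15.5% and 12.7% with vehicle. Position 20 held 22.5%, 23.6% and 26.02% with estradiol and 23.1%, 24.4% and 26.2% with vehicle. G2M cells thus had the lowest share at position 9 and the highest at position 20 in both libraries.

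Within each phase the ratio of estradiol to vehicle over all cells stayed small. At position 20 it was 1.15 in G1 (1.14 to 1.16), 1.11 in S (1.09 to 1.12) and 1.07 in G2M cells (1.06 to 1.08). At position 9 it was 0.892 in G1 (0.880 to 0.905), 0.906 in S (0.889 to 0.924) and 0.981 in G2M cells (0.966 to 0.996). At position 12 each interval included 1, with ratios of 1.03 in G1 (0.962 to 1.11), 1.00 in S (0.923 to 1.08) and 1.01 in G2M cells (0.957 to 1.07). In cells of 1000 to 1400 repair UMIs the values given above turn the order of the libraries at both main positions in each phase. Position 20 was lower with estradiol there, at 22.5% with estradiol and 23.1% with vehicle in G1 cells. Position 9 was higher with estradiol, at 18.2% with estradiol and 15.3% with vehicle in G1 cells. Whether the ratios differ between phases was not tested.

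Within a phase the fold limit was passed by almost no Normal position, and by a small share of all repair rows as well. In G1 cells 0 of 36 positions passed it upwards, against 6.52% of all repair rows, and position 5 passed it downwards at 0.779, 2.78% of 36 against 2.8%. In S cells 0 of 35 passed it upwards, against 3.87%, and 0 downwards, against 1.41%. In G2M cells 0 of 36 passed it upwards, against 0.608%, and 0 downwards, against 1.82%. The window ratio was 1.00 in G1 (0.832 to 1.20), 0.743 in S (0.586 to 0.946) and 0.898 in G2M cells (0.762 to 1.06). The S value rests on 161 window UMIs with estradiol and 127 with vehicle.

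The Normal profile varied widely among the deposited clusters. The share of UMIs that would have to change position between a cluster and the rest of its library ran from 3.35% (cluster 0) to 12.7% (cluster 2) with estradiol, and from 1.83% (cluster 6) to 13.8% (cluster 3) with vehicle. Position 9 ranged from 9.64% in cluster 3 to 20.97% in cluster 2 with estradiol, and from 7.997% in cluster 3 to 21.8% in cluster 2 with vehicle. Position 20 ranged from 20.2% in cluster 2 to 28.4% in cluster 4 with estradiol, and from 18.1% in cluster 2 to 26.5% in cluster 4 with vehicle. Over all cells of a cluster, position 9 was the main position in cluster 2 of either library and in cluster 5 with vehicle. Position 20 was the main position in the other clusters. The sources used here do not say how the clusters were made or whether repair rows entered, so these ranges are a description.

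The clusters also differed in phase. Cluster 2 was 85.4% G1 cells with estradiol and 93.7% with vehicle, and cluster 5 was 95.6% with estradiol and 97.0% with vehicle. Cluster 4, with the highest share at position 20, was 100% G2M in both libraries. Cluster 3 was mixed, with 40.2% G1, 34.2% S and 25.7% G2M cells with estradiol and 42.5%, 22.1% and 35.4% with vehicle.

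Cluster 3 stood at one end of the profiles in both libraries. Position 11 held 8.997% there with estradiol, just under position 9, and 10.9% with vehicle, above position 9. Position 21 held 4.69% with estradiol and 5.06% with vehicle. Cluster 3 had the highest Normal share of repair UMIs, 14.3% with estradiol and 14.6% with vehicle, and cluster 2 the lowest, 13.0% with estradiol and 13.4% with vehicle. Cluster 3 was also deepest, with a median of 1597 repair UMIs with estradiol and 1240 with vehicle, and cluster 2 shallowest, with 949.5 with estradiol and 747 with vehicle.

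The gap between these clusters at position 9 remained in cells of 1000 to 1400 repair UMIs. Position 9 was at 12.6% in cluster 3 and 20.6% in cluster 2 with estradiol, and at 8.58% in cluster 3 and 19.6% in cluster 2 with vehicle. The lead of position 9 over position 20 did not remain. In cluster 2 position 20 held 20.8% with estradiol and 20.3% with vehicle, with intervals that overlap those of position 9. In cluster 5 with vehicle, position 20 held 20.7% and position 9 held 18.1%. Cluster 2 had 30 estradiol cells and 133 vehicle cells in that range. Median all-gene UMIs there were 2561 in cluster 3 and 775.5 in cluster 2 with estradiol, and 2703 in cluster 3 and 813 in cluster 2 with vehicle, and their part in the gap was not tested.

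The order of the clusters was alike in the libraries. Over the 8 clusters, the Spearman correlation between libraries was 0.98 for the share at position 9, 0.93 for position 11 and 0.86 for position 20. For the window it was -0.26, where a cluster held as few as 12 UMIs. With the median repair UMIs of the clusters, position 9 had a Spearman correlation of -0.88 with estradiol and -0.98 with vehicle, and position 20 one of 0.95 in either library. For position 12 the Spearman correlation was 0.76 with estradiol and 0.71 with vehicle. Its Pearson correlation was 0.92 with estradiol and 0.88 with vehicle, beside 0.96 with estradiol and 0.95 with vehicle for position 20. Position 12 held 0.512% in cluster 7 with estradiol and 0.622% with vehicle, although this cluster was 56.6% G2M with estradiol and 63.0% with vehicle. In cluster 0, which was 78.0% G2M with estradiol and 81.7% with vehicle, position 12 held 1.04% with estradiol and 1.08% with vehicle.

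Cells varied beyond counting error at both main positions. Each cell was thinned to 50 Normal UMIs, which left out 63 estradiol cells and 215 vehicle cells with fewer. Position 20 then had 12.4 ± 3.70 UMIs per cell with estradiol (SD over 3304 cells) and 11.01 ± 3.77 with vehicle (SD over 4725 cells), where binomial counting alone gives an SD of 3.05 with estradiol and 2.93 with vehicle. Position 9 had 7.69 ± 3.48 with estradiol and 8.47 ± 3.77 with vehicle, where counting alone gives 2.55 with estradiol and 2.65 with vehicle. Cells of 1 library are not replicates, and these SDs describe the cells.

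Most thinned cells had more UMIs at position 20 than at position 9, 74.5% of them with estradiol and 60.8% with vehicle. In G1, S and G2M cells the share was 62.1%, 72.1% and 87.9% with estradiol and 45.6%, 60.9% and 83.1% with vehicle. It was 93.7% in cluster 3 and 41.6% in cluster 2 with estradiol, and 95.2% in cluster 3 and 27.6% in cluster 2 with vehicle. In cells of 1000 to 1400 repair UMIs the order of the libraries turned, to 67.8% with estradiol and 78.8% with vehicle.

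Ends in the window were rare in single cells. After thinning, 5.27% of estradiol cells and 5.78% of vehicle cells had a Normal UMI at positions 44 to 50. Without thinning the shares were 16.6% with estradiol and 13.7% with vehicle, in cells with a median of 180 Normal UMIs with estradiol and 128 with vehicle. Thinned cells used 18.4 different positions on average with estradiol and 18.7 with vehicle. The Normal share of a cell's repair UMIs had a median of 13.9% in both libraries, over cells with at least 200 repair UMIs. Its SD was 1.64 percentage points with estradiol and 1.69 with vehicle, where counting alone gives 1.01 with estradiol and 1.19 with vehicle.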

How the data were processed

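Estradiol and vehicle cells had 1 mRNA and 1 repair library each. The deposited matrix holds natural log values made by the authors. The planned design had assumed counts. Each repair value was the natural log of a count per 10000 repair UMIs of its cell, plus 1, so whole counts were recovered. All 1714799 values above 0 came out whole within 1e-06, and in 100% of cells they summed to the deposited count of repair UMIs. Treatment, cluster, phase, UMI counts and the mitochondrial percent of a cell come from the deposited annotation. The submitters' processing notes name UMI-tools 0.5.3, SAMtools, cutadapt 1.8.3, Cell Ranger 3.0.2, Bowtie2 2.3.2 and hg38 without saying what each was used for. The sources used here do not give the treatment of doublets, no doublet caller was run, and no deposited cell was left out.

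Normal UMIs were added up per library, phase or cluster and divided by the Normal total. Shares have exact Clopper-Pearson 95% intervals, and ratios have intervals conditional on the sum of both counts, tested on simulated data. The simulated UMIs were drawn independently, so that test does not cover the spread between cells. Positions were held to the fold limit, counted by side of 1 and ranked by ratio only where both sides together had at least 500 UMIs, and ratios in the window can rest on fewer. Named positions were those with at least 2% of Normal UMIs, local peaks of at least 1%, positions 1 and 61, the window 44 to 50, and the 3 highest and 3 lowest ratios. Members, lists and rules were chosen with earlier results of these data known. Other positions, the bands and the depth bins were chosen after seeing the data. Python 3.11.15, numpy 2.4.6, pandas 2.3.3 and scipy 1.17.1 were used.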

Additional observations from a re-analysis of the deposited data

Results flagged for a closer look

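Between the authors' clusters, the ratio of estradiol to vehicle took opposite sides of 1, each with a counting interval that excludes 1, at 7 of the 13 positions with at least 2% of Normal UMIs. The same count was not made over all repair rows, so it has no base to be read against. Some intervals barely exclude 1. The upper limit was 0.998 at position 10 in cluster 2 and at position 16 in cluster 6, and the lower limit was 1.001 at position 21 in cluster 0. These differences between clusters were not tested. Position 1 was at 1.27 in cluster 6 and 0.877 in cluster 4. Position 9 was at 1.21 in cluster 3 and 0.964 in cluster 5. Position 10 was at 1.1 in cluster 3 and 0.866 in cluster 2, and position 16 at 1.05 in cluster 1 and 0.921 in cluster 6. Position 20 was at 1.13 in cluster 5 and 0.903 in cluster 6, the only cluster where it was below 1. Position 21 was at 1.04 in cluster 0 and 0.817 in cluster 6, and position 25 at 1.18 in cluster 6 and 0.910 in cluster 3. Cluster 6 held 79 estradiol cells and 626 vehicle cells, and cluster 2 held 82 estradiol cells and 1150 vehicle cells. The clusters are those of the deposited annotation.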

How the results depend on the processing

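With summed UMIs, the log2 ratio of estradiol to vehicle was -0.0092 for the Normal share of repair UMIs, 0.16 for position 20 and -0.15 for the window. For the Normal share, equal weight to each cluster gave -0.031. Of the settings chosen after seeing the data, cells with 800 to 1400 repair UMIs gave -0.061 and equal weight to each depth bin gave -0.055. For position 20, equal weight to each cell and thinning to 50 Normal UMIs both gave 0.17. Both of these settings left out the cells with fewer than 50 Normal UMIs. Equal weight to each phase gave 0.14 and to each cluster 0.086. Cells with 800 to 1400 repair UMIs gave 0.0025, with an interval that includes 0, and equal weight to each depth bin gave 0.029. The window stayed between -0.25 and -0.098 under the 10 alternatives run. Its interval, which includes 0 with summed UMIs, was computed as -0.35 to -0.041 with equal weight to each phase. With equal weight to each depth bin it was computed as -0.40 to -0.10. Both treat reweighted shares as plain counts and leave out the larger error of small phases or bins. They are thus too narrow, and no conclusion is drawn from their lying below 0. The count of positions past the fold limit upwards was 0, and 2 (positions 20 and 21) at 1.1-fold. Downwards it was 0, 10 at 1.1-fold and 4 (positions 48, 49, 50 and 54) with a minimum of 100 UMIs. It was 1 (position 40) with equal weight to each cluster, with thinning and with equal weight to each depth bin. The ratio intervals included 1 at position 49 (0.563 to 1.02), position 50 (0.506 to 1.17) and position 54 (0.498 to 1.14). The share of all repair rows was not computed at the minimum of 100 UMIs. The causes of these moves were not tested. No paired analysis was possible because each treatment has 1 repair library, and for the same reason no replicate could be left out. The 635 window UMIs with estradiol and 748 with vehicle limit what can be read at single positions there.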
